A study of Mus musculus with 4 samples.

Results

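Whole-brain gene expression was compared between a Nav1.8CreROSA26DTA mouse array with lipopolysaccharide (LPS) and a Nav1.8CreROSA26DTA mouse array with phosphate-buffered saline (PBS). These are 2 of the 4 arrays of the series, and the other two hold wild-type brain with the same injections. Of 23457 genes named on the array, 16526 were well above background on both Nav1.8CreROSA26DTA arrays and were measured. A further 534 were above background only with LPS, 378 only with PBS, and 6019 on neither array.

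The LPS brain came from an intraperitoneal dose of 20 mg/kg body weight and was taken 12 hours later. For the PBS brain the labels give no separate time. Both groups share the same alleles. In this genotype, Cre recombinase is made under control of Scn10a, which encodes the sodium channel Nav1.8, and turns on the A subunit of diphtheria toxin at the ROSA26 locus, which kills cells of the Nav1.8 lineage. Those cells are mostly pain-sensing neurons whose bodies lie in sensory ganglia outside the brain, and no ganglion was on these arrays. The labels give neither the strain, age and sex of the mice nor whether an array holds RNA of a single mouse or of a pool. Each group has 1 array, so no difference here has a replicate check and none was tested. Differences are described by size, and a gene was counted as higher or lower when its signals were at least 2-fold apart, a difference of 1 on the log2 scale.

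LPS is a cell wall component of Gram-negative bacteria that is sensed by Toll-like receptor 4 together with Cd14. Signalling from this receptor turns on NF-kB target genes such as cytokines and chemokines, and type I interferon, whose receptor acts through STAT proteins on interferon-stimulated genes. In the brain, LPS given to the body reaches chiefly the vessels, the choroid plexus, the meninges and microglia, and astrocytes respond to the cytokines released there. Acute-phase proteins, which the liver secretes in bulk during infection, are also made by activated cells of the brain.

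The promoters of 8 genes that were far higher with LPS are shown first, because interferon and NF-kB motifs lie within them. Each is a stretch of 120 bases upstream of the annotated start, read 5′ to 3′ on the gene's strand, from the RefSeq promoter table of GRCm38.p6. Capitals mark the interferon-stimulated response element core GAAANNGAA, the NF-kB pattern GGGANNTTC and the STAT pattern TTCNNNGAA, each on either strand, and motifs may overlap.
Cxcl10 (chr5:92348988-92349107, minus strand): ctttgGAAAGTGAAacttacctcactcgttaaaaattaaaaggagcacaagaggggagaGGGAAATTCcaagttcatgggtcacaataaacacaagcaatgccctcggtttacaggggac
Ms4a6c (chr19:11469230-11469349, plus strand): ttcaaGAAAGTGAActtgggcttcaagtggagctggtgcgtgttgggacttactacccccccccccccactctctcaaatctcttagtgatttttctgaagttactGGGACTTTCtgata
AW112010 (chr19:11050567-11050686, minus strand): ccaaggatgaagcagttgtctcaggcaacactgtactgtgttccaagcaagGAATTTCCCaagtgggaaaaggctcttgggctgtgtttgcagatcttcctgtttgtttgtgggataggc
Gbp2 (chr3:142620543-142620662, plus strand): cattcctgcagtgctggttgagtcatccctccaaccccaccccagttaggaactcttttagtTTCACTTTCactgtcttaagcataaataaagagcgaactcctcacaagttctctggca
Tgtp2 (chr11:49064213-49064332, minus strand): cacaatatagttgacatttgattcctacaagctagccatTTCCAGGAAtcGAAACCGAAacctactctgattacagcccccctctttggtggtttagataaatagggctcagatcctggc
Gbp5 (chr3:142496684-142496803, plus strand): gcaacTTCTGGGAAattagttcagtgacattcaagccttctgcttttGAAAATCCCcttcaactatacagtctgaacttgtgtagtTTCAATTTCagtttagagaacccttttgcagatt
Isg15 (chr4:156200819-156200938, minus strand): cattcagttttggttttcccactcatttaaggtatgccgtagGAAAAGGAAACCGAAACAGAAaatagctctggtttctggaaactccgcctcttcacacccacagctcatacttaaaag
Oas1a (chr5:120907526-120907645, minus strand): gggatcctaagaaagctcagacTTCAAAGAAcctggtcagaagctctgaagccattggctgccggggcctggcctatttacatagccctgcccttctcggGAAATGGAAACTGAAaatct

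Cxcl10 encodes an interferon-induced chemokine for T cells, and its stretch holds 1 interferon core and 1 NF-kB pattern. The stretch of Ms4a6c, which encodes a membrane protein of macrophages, likewise holds 1 of each, and AW112010, an interferon-induced transcript of immune cells, has 1 NF-kB pattern. Gbp2, Tgtp2 and Gbp5 encode interferon-inducible GTPases that act on membranes around intracellular pathogens, and each stretch has 1 interferon core. Isg15, a ubiquitin-like protein conjugated to other proteins after interferon, has 3 overlapping interferon cores, and Oas1a, which belongs to the family of double-stranded RNA sensors, has 2.

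Over the 13039 measured genes with a promoter in the table, 6.37% had the interferon core within 250 bases before the start. The share was 16% among 382 genes at least 2-fold higher with LPS, 23.4% among 128 genes at least 4-fold higher and 8.70% among 184 genes at least 2-fold lower. For the NF-kB pattern the shares were 3.07%, 6.02%, 12.5% and 4.35% in the same order, and for the STAT pattern 6.05%, 10.2%, 13.3% and 4.89%. Among all 27025 promoters of the table, 7.16% held the interferon core, 3.17% the NF-kB pattern and 7.18% the STAT pattern. Base composition also differed between these groups. The median GC content was 58.8% over the measured genes, 53.8% over those at least 2-fold higher, 50.2% over those at least 4-fold higher and 54.2% over those at least 2-fold lower. Its part in the shares was not tested. By list, the core lay in 8 of 9 promoters of the interferon-gamma-inducible GTPases and in 12 of 24 of the type I interferon-stimulated genes. In the 16 homeostatic microglia promoters it was in 0, too few promoters to set this apart from the 6.37% over all measured genes. The NF-kB pattern was in 3 of these 16. It was in 1 of 27 promoters of the cytokine and NF-kB target list, which held the interferon core in 2.

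Levels below are log2 of a probe's signal relative to the 75th percentile of its array, so a level compares arrays for 1 gene and never 1 gene with another. With LPS, 513 of the 16526 measured genes were at least 2-fold higher (3.1%) and 235 at least 2-fold lower (1.42%). At least 4-fold, 170 were higher (1.03%) and 24 lower (0.145%), and at least 16-fold, 23 (0.139%) and 2 (0.0121%). The median over all measured genes was −0.04, and 90% of genes lay between −0.64 and 0.76. Among the genes not above background with PBS, 204 had a lower bound of at least 2-fold, against 73 genes lost with LPS. The shift was therefore uneven, with most of the large differences upward.

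**Figure D1:**
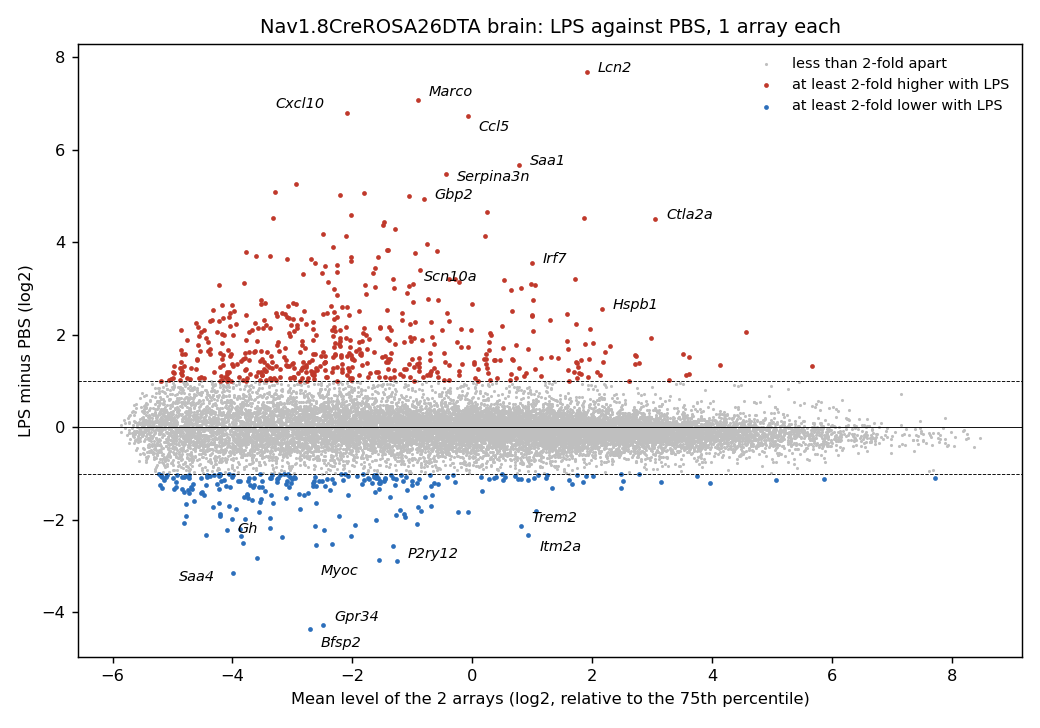
Difference between LPS and PBS (log2) against the mean level of both arrays (log2, relative to the 75th percentile) for the 16526 genes measured in Nav1.8CreROSA26DTA brain, each point 1 gene. Red points are the 513 genes at least 2-fold higher and blue points the 235 at least 2-fold lower; the widest differences lie above 0, up to 7.69 for Lcn2, and the lowest are Bfsp2 at −4.36 and Gpr34 at −4.27.

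Precision was set by the arrays and by the probes. Spots of the same probe varied by a median SD of 0.0418 to 0.0455 (log2) over 299 probes printed 10 times per array. Different probes of the same gene varied more, with a median SD of 0.14 over 6077 genes. Of 94 genes with several probes that were at least 2-fold higher, 59 passed that size with every probe, and of 34 lower genes, 15 did. Dim genes passed the threshold more often. Among the 4132 dimmest genes 6.03% were higher and 3.27% lower, against 0.532% and 0.266% among the 4132 brightest. The arrays shared 1 slide and 1 scan but sat at different places on it, so a place on the slide and a treatment cannot be told apart. None of these values measures variation between animals.

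The brain's own cell types were present on both arrays. Neuronal Snap25 was at 5.79 with PBS and 5.84 with LPS, Rbfox3 at 5.64 and 5.53, and Syt1 at 6.85 and 6.59. Of the 3 astrocyte markers, Aqp4, Slc1a2 and Gja1 differed by −0.02, −0.43 and −0.59. The oligodendrocyte markers Mbp and Mog differed by −0.18 and −0.24, and the endothelial markers Cldn5, Cdh5 and Slco1c1 by −0.15, 0.86 and −1.70. All of these were well above background on both arrays. Of the 3 choroid plexus markers, Ttr was not well above background with PBS (−7.27) and reached −3.92 with LPS. The other choroid plexus markers were well above background on both arrays, Kl at −3.44 and −3.26 and Folr1 at −3.14 and −2.98. Of the liver markers, Alb was not well above background on either array, and Apoa2 was at 2.58 and 2.30. Markers of skeletal muscle were no higher with LPS, with Acta1 at −0.09 and −0.52.

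Scn10a, whose locus carries the Cre, was at −2.54 with PBS and 0.55 with LPS, a difference of 3.09. Its 2 probes gave 1.89 and 3.09, so both were higher with LPS. In wild-type brain the difference was 2.28. The transcript Gt(ROSA)26Sor, from the locus of the toxin allele, was at 1.23 and 1.03, and its 2 probes gave −0.20 and 0.38. Neither value checks the ablation, which takes place in ganglia. The 12 measured voltage-gated sodium channel genes had a median of −0.03. Of these, 2 were at least 2-fold higher, Scn10a among them, and 0 lower (16.7% higher, against 3.1% over all measured genes). Of 11 measured genes of sensory neurons and nociceptors, Scn10a was the 1 at least 2-fold higher. Tac1, which encodes substance P, was lower (1.61 with PBS, 0.58 with LPS), and its other probe gave −0.91, short of 2-fold.

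Acute-phase and defence proteins gave some of the widest differences. Lcn2 encodes lipocalin 2, which withholds iron from bacteria, and went from −1.93 with PBS to 5.76 with LPS, 206-fold. Saa3, a serum amyloid A gene of macrophages and activated tissue cells, was not well above background with PBS and at 6.20 with LPS, at least 4552-fold higher. For both genes, each LPS level lay above each PBS level in either genotype. Saa1 and Saa2 went from −2.05 to 3.62 and from −4.34 to 0.73. Serpina3n, a protease inhibitor of reactive astrocytes, stood at −3.17 and 2.31, 44.5-fold higher. Of 23 measured members of this list, 13 were at least 2-fold higher and 3 lower, with a median of 1.17. The exceptions included Saa4, a serum amyloid A gene made constitutively in liver, which was at −2.41 with PBS and −5.57 with LPS and was not above background on either wild-type array. Cp, the ferroxidase ceruloplasmin, was at −0.56 and 2.53 on its representative probe, a difference of 3.09, while its 4 probes ranged from 0.07 to 3.09 with a median of 1.71. Hp, which binds free haemoglobin, was at −3.14 and −0.11. Serpina3f and Serpina3i had bounds of at least 20.7-fold and 6.13-fold.

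Chemokines divided into a few that were far higher and many that were not. Cxcl10 went from −5.48 to 1.32, 111-fold, and Ccl5, which attracts T cells and monocytes, from −3.44 to 3.29, 106-fold. Cxcl1, a neutrophil attractant, was below background with PBS and at 0.35 with LPS, at least 65.9-fold higher. Cxcl9, Cxcl13 and Cxcl5 had bounds of at least 9.0-fold, 7.69-fold and 3.43-fold. Ccl2, the main monocyte attractant, was at −2.77 with PBS and −1.12 with LPS, and in wild-type brain its difference was 4.33 from a PBS level of −5.35. Ccl4 was lower (−3.94 and −5.60). Of 15 measured chemokines 5 were at least 2-fold higher and 1 lower, and the median was 0.13. Among 7 measured receptors, Ccr7 and Ccrl2 were higher by 1.34 and 1.08. Cx3cr1, the microglial fractalkine receptor, was lower by −1.16, and its other probe gave −0.73, short of 2-fold. Ccr2, a receptor of monocytes, was above background only with PBS, with a bound of at least 2.19-fold lower. On both wild-type arrays Ccr2 was not well above background (−6.23 with PBS and −8.03 with LPS).

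Cytokine and NF-kB genes were higher in part. Of 35 measured, 14 were at least 2-fold higher and 0 lower, with a median of 0.68. Ch25h, which makes the oxysterol 25-hydroxycholesterol, went from −2.74 to 1.24, and Bcl3, a nuclear partner of NF-kB, from −3.82 to −0.23. Osmr, a receptor chain for oncostatin M, was at −1.66 and 0.81. Csf3, Il1rn and Il6, which encode the granulocyte growth factor, the interleukin-1 receptor antagonist and a fever-inducing cytokine, were above background only with LPS. Their bounds were at least 18.6-fold, 3.99-fold and 2.75-fold. The list of feedback inhibitors of these pathways gave 5 of 21 measured at least 2-fold higher. Irak3, which blocks Toll-like receptor signalling, went from −5.37 to −2.25, Socs3, which restrains STAT3, from −1.06 to 0.67, and Tnfaip3, an inhibitor of NF-kB, from −2.17 to −0.55. Nfkbiz, counted in this list although its product is not only an inhibitor, went from −3.20 to −1.03.

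Interferon-responsive genes were higher nearly throughout. Among 32 measured type I interferon-stimulated genes, 28 were at least 2-fold higher and 0 lower, with a median of 2.05 and a range of 0.33 to 3.64. Irf7, the transcription factor that amplifies interferon production, went from −0.77 to 2.77. Isg15 was at −1.06 and 2.13, Oasl1 at −4.51 and −0.87, and Zbp1, a sensor of Z-form nucleic acids, at −4.01 and −0.51. Ifi44 was at least 11.5-fold higher. The GTPases had 13 of 15 at least 2-fold higher and a median of 3.0. Gbp2 went from −3.28 to 1.66 and Tgtp2 from −2.09 to 2.57, 30.8-fold and 25.3-fold, and Gbp6, Gbp4, Gbp5 and Iigp1 differed by 3.81 to 4.18. These lists overlap with reactive astrocyte and macrophage lists, so their counts are not independent of each other.

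Gbp2b, another member of the GTPase family, behaved differently from its relatives across the genotypes. It was at −5.57 with PBS and −0.30 with LPS in Nav1.8CreROSA26DTA brain, 38.6-fold higher. On both wild-type arrays it was not well above background, at −8.55 with PBS and −8.12 with LPS. No other gene among the 20 highest lacked a wild-type value, and the cause of this was not tested.

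Of 23 measured antigen presentation genes, 10 were at least 2-fold higher and 2 lower, with a median of 0.53. Nlrc5, the activator of MHC class I genes, was at −5.66 and −1.88 on the probe that represents it, a difference of 3.78, but its other probe gave −0.07, so its change is uncertain. The peptide transporter Tap1 went from −2.69 to −0.16, the immunoproteasome subunits Psmb8 and Psmb9 from −2.40 to 0.06 and from −2.41 to −0.30, and H2-K1 from 1.97 to 3.50. The MHC class II genes H2-Aa and H2-Eb1 were lower, at −3.82 and −5.73 and at −0.16 and −2.09. In wild-type brain both differed by less than 2-fold (0.11 and 0.03), and their PBS levels there were lower, at −5.80 and −1.91. H2-Aa was near the lowest level well above background on both wild-type arrays (−5.80 against −6.33 with PBS, −5.69 against −5.91 with LPS). The same held on the Nav1.8CreROSA26DTA LPS array (−5.73 against −5.98), so the sizes of its differences are limited there. Against the wild-type PBS array the H2-Aa difference was 0.07, so its direction depended on which PBS array served as the baseline. On the probes that represent them, other class II genes differed by less than 2-fold. H2-Ab1 differed by −0.82, Cd74 by −0.38 and Ciita, the class II activator, by −0.09. The 4 probes of H2-Ab1 ran from −1.15 to −0.82, so its lowest probe passed 2-fold.

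Receptors for bacterial products gave 4 of 22 measured genes at least 2-fold higher. Marco, a scavenger receptor of macrophages that binds bacteria, went from −4.45 to 2.63, 135-fold, and was the largest difference after Lcn2 among measured genes. Its wild-type difference was 3.86, from −4.57 to −0.72. Tlr2, which senses bacterial lipoproteins, was at −3.34 and 0.10, and Cd14 at −1.82 and 0.45. Msr1, Clec4d and Clec4e, receptors of myeloid cells, were above background only with LPS, with bounds of at least 16.3-fold, 12.3-fold and 5.47-fold. Tlr4 itself differed by 0.78.

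Complement genes were at least 2-fold higher in 7 of 18. The early classical pathway proteases C1s1 and C1ra went from −3.80 to −1.52 and from −2.16 to 0.07 and the receptor C5ar1 from −4.14 to −2.59. C3 was at −1.51 and 0.11, a difference of 1.62, and its other probe gave 4.48. Cfb, of the alternative pathway, was at least 58.9-fold higher. Inflammasome and lytic cell death genes had 6 of 17 at least 2-fold higher, among them Casp4, the intracellular LPS sensor (−3.68 and −0.83), Gsdmd, its pore-forming substrate (−2.78 and −1.57), and Ripk3 (−5.50 and −2.85). Il1r2, the decoy receptor for interleukin-1 and a gene of neutrophils, was at −4.32 and 0.26. Mmp3 and Mmp12, which cleave matrix, were at least 154-fold and 15.4-fold higher, and Timp1, an inhibitor of these enzymes, went from −1.86 to 2.28.

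**Figure D2:**
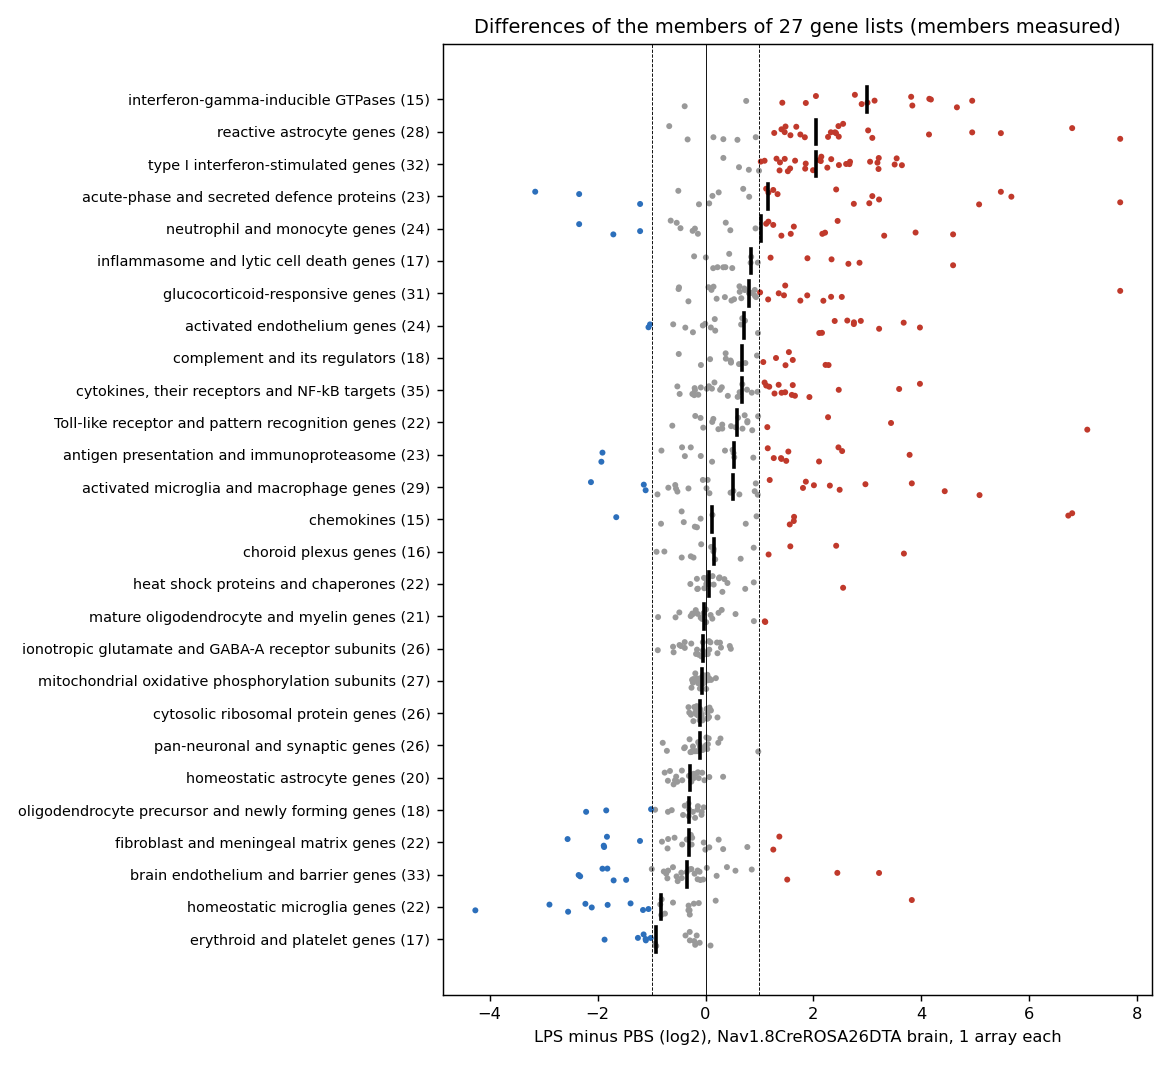
LPS minus PBS (log2) in Nav1.8CreROSA26DTA brain for the measured members of gene lists, 1 point per gene, with the number measured beside each list and a black bar at the median. Red points are at least 2-fold higher and blue points at least 2-fold lower; the medians run from 3.0 for the interferon-gamma-inducible GTPases to −0.91 for erythroid and platelet genes.

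Of 22 homeostatic microglia genes measured, 9 were at least 2-fold lower, 1 higher and 12 between, with a median of −0.82. Gpr34, a lysophosphatidylserine receptor, was at −0.35 with PBS and −4.62 with LPS, 19.2-fold lower. P2ry12 and P2ry13, purinergic receptors by which microglia sense injury, went from 0.19 to −2.70 and from −1.35 to −3.58, and Crybb1, a crystallin gene expressed by microglia, from −1.33 to −3.88. Slc2a5 and Ltc4s were at −0.90 and −3.01 and at 0.05 and −1.76. Gpr84, a receptor for medium-chain fatty acids that microglia gain on activation, went the other way (−3.33 and 0.50). The general markers Cx3cr1 and Tmem119 were lower by −1.16 and −0.82, and the other probe of Cx3cr1 gave −0.73. Bulk RNA cannot tell fewer cells of a type from less RNA per cell.

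Activated microglia and macrophage genes gave 10 of 29 at least 2-fold higher, 3 lower and 16 between, with a median of 0.52. Gpr84 is in both lists. Fcgr4, an activating antibody receptor, went from −5.83 to −0.75, Ms4a6d from −3.69 to 0.74, and Spp1, which encodes osteopontin, from −0.83 to 2.13. Trem2, a lipid receptor of microglia, was lower (1.87 and −0.26), as it was in wild-type brain by −1.16. Among genes of neutrophils and monocytes, 12 of 24 measured were at least 2-fold higher and 3 lower. Ly6g, which defines mouse neutrophils, was at −3.71 and −1.26, Pilra at −4.28 and −0.38, Lilrb4a at −4.48 and −1.17 and Fpr2 at −2.48 and −0.31, and Fpr1 had a bound of at least 14.6-fold. Ltf, a neutrophil granule protein, was lower (−2.69 and −5.03), and Cxcr2, the neutrophil chemokine receptor, was not well above background on any array. Lymphocyte genes had 2 of 11 measured at least 2-fold higher, Il2rg and Gzma, with a median of −0.16.

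Reactive astrocyte genes were at least 2-fold higher in 22 of 28, with a median of 2.06. Besides Lcn2, Cxcl10, Serpina3n and Gbp2 they included Timp1 and Cp, and Steap4 and Slc10a6 were at least 5.74-fold and 15.4-fold higher. Homeostatic astrocyte genes differed less, with 0 of 20 past 2-fold, a median of −0.29 and a range of −0.76 to 0.33. Fgfr3 was at 4.25 with PBS and 3.50 with LPS and the potassium channel Kcnj10 at 4.02 and 3.36.

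Vessel genes were listed by activation and by barrier function. Of 24 activated endothelium genes, 10 were at least 2-fold higher and 2 lower. Icam1, to which leukocytes adhere, went from −1.95 to 0.81, Plaur, the urokinase receptor, from −3.85 to −0.18, Lrg1 from −0.36 to 2.39 and Adamts9 from −3.22 to −0.34. Among 33 barrier genes, 6 were lower and 3 higher. The lower ones included the transporters Slc38a5 (−0.84 and −3.19), which carries glutamine, Slc22a8 (−1.27 and −3.18), which carries organic anions, Slco1c1 (0.16 and −1.54), which carries thyroxine, and Abcb1a (0.67 and −1.15), the drug efflux pump. Itm2a was at 2.10 and −0.23. Pglyrp1 and Ly6a, listed here as barrier genes and also made by activated or myeloid cells, were higher by 3.22 and 2.44. In the choroid plexus list, 4 of 16 measured genes were at least 2-fold higher and 0 lower, with a median of 0.15. Aqp1, a water channel, went from −3.42 to 0.26 and Lbp, the LPS-binding protein, from −3.27 to −0.85. Wdr86 differed by −0.91, and Otx2 was above background only with PBS, with a bound of at least 2.46-fold lower. On both wild-type arrays Otx2 was not well above background (−7.89 with PBS and −7.73 with LPS). Clic6 of that list was higher by 1.17, which normexp background correction turned to −0.13.

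Genes of steroid and stress responses passed 2-fold in part. Of 31 glucocorticoid-responsive genes, 11 were at least 2-fold higher and 0 lower, with a median of 0.81. The highest of them was Lcn2 (7.69), which is also in the acute-phase and reactive astrocyte lists, so these counts are not independent of each other. Fkbp5, a brake on the glucocorticoid receptor, went from 1.41 to 3.17, Map3k6 from −0.60 to 1.93, Plin4 from 0.13 to 2.46, Cdkn1a from −0.59 to 1.59 and Angptl4 from 1.21 to 2.69. Cebpd, a transcription factor of the acute-phase response, was at 1.09 and 2.92, in a list of stress response and C/EBP genes with 2 of 23 at least 2-fold higher and a median of 0.12. The small heat shock gene Hspb1 was the 1 of 22 chaperone genes past 2-fold (0.88 and 3.43), and the median of that list was 0.06. Of 34 immediate early genes measured with Bdnf, 5 were higher, among them Maff (−4.90 and −2.14) and Arc (1.47 and 2.68), and Bdnf was lower (−0.33 and −1.52). Atf3 was higher by 1.07, or at −0.01 with normexp. Ptgs2, the inducible cyclooxygenase that makes fever-inducing prostaglandin, went from −1.74 to −0.27, and the breakdown enzyme Hpgd from −1.70 to −2.70. Ido1, which starts the kynurenine pathway, was at −3.50 and −2.32, and Hdc, which makes histamine, at −3.31 and −1.67.

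Neuronal and housekeeping lists held few or no genes past 2-fold. Counts were 0 of 26 pan-neuronal and synaptic genes (median −0.11), 0 of 26 glutamate and GABA-A receptor subunits (−0.05), 0 of 20 circadian clock genes (−0.03), 0 of 27 mitochondrial respiratory subunits (−0.06) and 0 of 26 cytosolic ribosomal protein genes (−0.10). In all, 11 of 53 lists had no member past 2-fold in either direction. Over all 16526 measured genes, 3.1% were at least 2-fold higher and 1.42% lower, and among the 4132 brightest 0.532% and 0.266%. Each of these lists is too small to set a count of 0 apart from those shares. Oligodendrocyte precursor genes had 3 of 18 lower, namely C1ql1 (−2.98 and −5.19), Cacng4 (−2.64 and −4.48) and Gpr17 (3.29 and 2.28), and all 18 were below 0, the highest at −0.03. Mature myelin genes had a median of −0.04, with Anln (0.31 and 1.42) and Hapln2 (−2.99 and −1.89) higher.

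**Figure D3:**
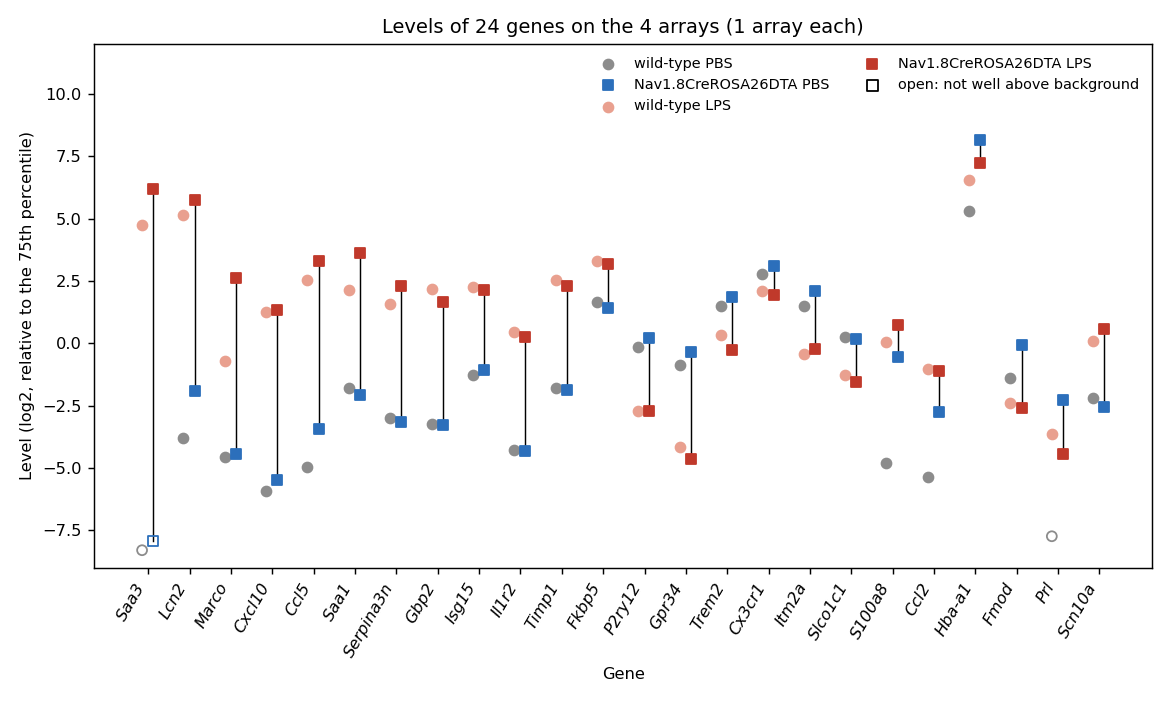
Levels (log2, relative to each array's 75th percentile) of selected genes on the 4 arrays, with squares for Nav1.8CreROSA26DTA, circles for wild-type and a line joining the Nav1.8CreROSA26DTA PBS and LPS values; open symbols were not well above background. Lcn2 runs from −1.93 to 5.76 and P2ry12 from 0.19 to −2.70 in Nav1.8CreROSA26DTA brain, while for S100a8, Ccl2, Hba-a1 and Fmod the PBS squares lie above the wild-type PBS circles.

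The PBS array of this genotype was above the wild-type PBS array for genes of several groups, some of which were lower and some higher with LPS. Of 16623 genes above background on both PBS arrays, 201 were at least 2-fold higher on the Nav1.8CreROSA26DTA one (1.21%) and 69 lower (0.415%). Among the 227 LPS-lower genes that wild-type PBS brain also measured, 48 were at least 2-fold higher on the Nav1.8CreROSA26DTA PBS array (21.1%). When the wild-type PBS array was set as the baseline instead, 77 of these 227 were still at least 2-fold lower (33.9%). For the 490 LPS-higher genes, 423 were still at least 2-fold higher (86.3%). These shares are descriptions only, since the genes were chosen by the same PBS array that is then set against the other. The lower genes also lay nearer the threshold, with a median of −1.19 against 1.58 for the higher ones among genes measured on all 4 arrays.

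Red cell and platelet genes were one such group. Of 17 measured with LPS against PBS, 6 were at least 2-fold lower and 0 higher, with a median of −0.91. Hba-a1, an alpha globin gene, was at 8.14 with PBS and 7.23 with LPS, against 5.28 and 6.56 in wild-type brain, so the highest level was on the Nav1.8CreROSA26DTA PBS array and the lowest on the wild-type PBS array. Alas2, the red cell enzyme of haem synthesis, was at 0.83 and −0.28, against −2.30 and −0.87. The linear signals of the 19 list members on the array summed to 703 times the 75th percentile on the Nav1.8CreROSA26DTA PBS array, and to 387 on its LPS array, 138 on wild-type PBS and 260.3 on wild-type LPS. Globin probes share sequence between paralogs, so the values of single globin genes are uncertain. Pf4, which encodes platelet factor 4, was at −1.18 and −2.29.

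Some neutrophil, meningeal and pituitary genes varied between the PBS arrays as well. S100a8 and S100a9, abundant in neutrophils, were at −0.53 and 1.20 on the Nav1.8CreROSA26DTA PBS array and at −4.82 and −3.19 on the wild-type one. Their LPS levels lay nearer each other (0.72 and 2.36, against 0.06 and 1.74), so the differences with LPS were 1.26 and 1.17 here and 4.88 and 4.93 in wild-type brain. Ly6g was at like levels on both PBS arrays (−3.71 and −3.81). Of 22 fibroblast and meningeal matrix genes, 5 were at least 2-fold lower with LPS, 2 higher and 15 between, with a median of −0.31. Fmod and Ogn went from −0.05 to −2.61 and from −0.33 to −2.21, whereas Dcn and Col3a1 were higher, from 2.04 to 3.41 and from −1.74 to −0.48. On the PBS arrays, 7 of the 22 were at least 2-fold higher on the Nav1.8CreROSA26DTA than on the wild-type PBS array. The summed signal of the list was 51.7 on that array, 49.1 with LPS, and 31.9 and 46.4 in wild-type brain. Prl and Gh, the pituitary hormones prolactin and growth hormone, were at −2.29 and −2.39 with PBS and −4.46 and −4.35 with LPS, and were not well above background on the wild-type PBS array. The other measured pituitary genes differed by less than 2-fold with LPS. Lhb was at −1.44 with PBS and −1.87 with LPS, and Pomc at −1.03 and −0.91. Their wild-type PBS levels were −1.70 and −1.45, also within 2-fold of those here. The part of blood, pituitary or meninges left with a brain in these differences was not tested.

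**Figure D4:**
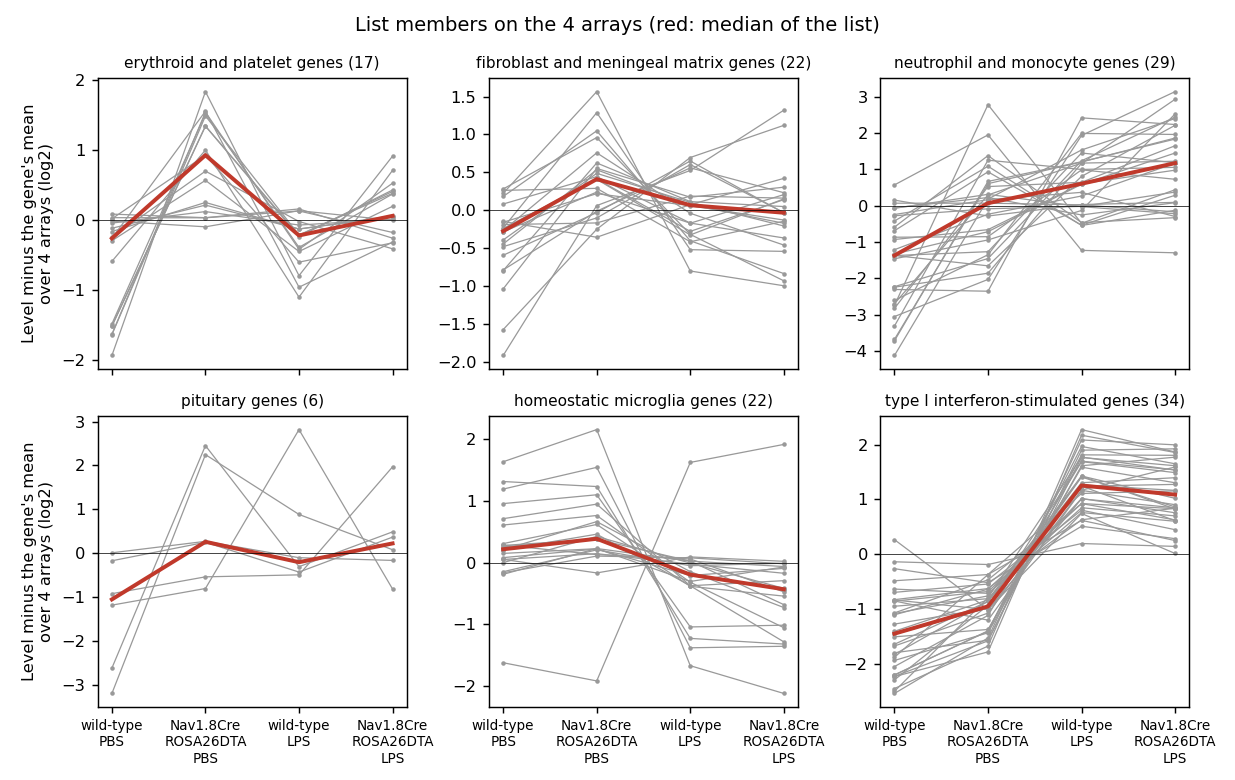
Level of each list member minus its mean over the 4 arrays (log2), 1 grey line per gene above background on at least 1 array, with the list median in red. Erythroid genes peak on the Nav1.8CreROSA26DTA PBS array, where their summed signal was 703 times the 75th percentile, whereas most homeostatic microglia genes are lower and interferon-stimulated genes higher on both LPS arrays.

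Of the 20 lowest differences, 3 were not above background on the wild-type PBS array (Saa4, Ltf and Prl), 7 were at least 2-fold higher on the Nav1.8CreROSA26DTA than the wild-type PBS array, and 10 had PBS levels within 2-fold of each other. The 7 include Bfsp2, a lens filament gene (−0.53 and −4.89, or −1.89 and −3.27 in wild-type brain), Myoc (−0.12 and −3.0), Cytl1 (−2.0 and −4.36), Col6a4 (−1.55 and −3.69) and Stil, a centriole gene, which was at −2.18 with PBS and −5.01 with LPS and at −5.01 on the wild-type PBS array too. The 10 include Gpr34, P2ry12, Crybb1, P2ry13, Slc38a5, Itm2a, Slc47a1 and Rpe65, the retinoid isomerase of the eye (−2.58 and −5.08). The 5 genes with the widest bounds lower with LPS, Chrnb1, Cpa1, Gm12718, Olfr453 and Tex22, were above background on the Nav1.8CreROSA26DTA PBS array alone among the 4, with bounds of at least 9.36-fold to 12.2-fold.

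The LPS differences were then set beside those of wild-type brain. Over 16240 genes measured on all 4 arrays, Pearson's r between the differences was 0.73 and Spearman's rho 0.49, a correlation across genes, which are not independent replicates; the differences share no array but share the slide. Of 485 such genes at least 2-fold higher in Nav1.8CreROSA26DTA brain, 373 were so in wild-type brain as well, which is 76.9% of the former and 68.8% of the latter list of 542. For lower genes the overlap was 43, or 19.7% of 218 and 43.9% of 98. In wild-type brain, 562 genes were higher (3.41%) and 102 lower (0.619%). Of the 20 highest genes here, 19 were measured in wild-type brain and all 19 were at least 2-fold higher there, with 12 differences larger here and 7 larger there.

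**Figure D5:**
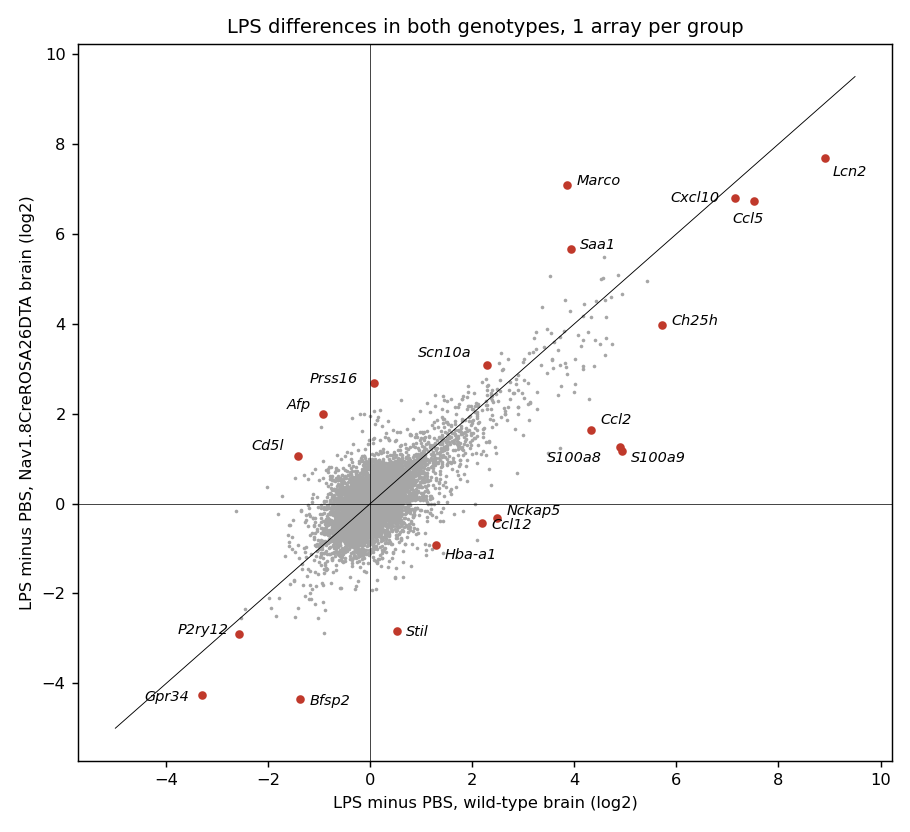
LPS minus PBS (log2) in Nav1.8CreROSA26DTA brain against the same in wild-type brain for the 16240 genes measured on all 4 arrays, with the diagonal of equal differences. Most genes far above 0 lie near the diagonal, Marco, Saa1 and Prss16 lie above it, and S100a8, S100a9, Ccl2 and Ccl12 lie below it.

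The widest gaps between the genotypes were not tested and rest on 4 single arrays. Above wild-type were Marco (7.08 against 3.86), Afp (1.98 against −0.93), Bub1b (1.69 against −0.98), Prss16, a thymic serine protease gene (2.67 against 0.07), Cd5l (1.06 against −1.41), Ccnb1 (−0.16 against −2.63), 4932411N23Rik (0.36 against −2.02) and Mup19 (1.90 against −0.36). Below wild-type were S100a9, S100a8, Stil (−2.83 against 0.52), Bfsp2 (−4.36 against −1.37), Ccl2 (1.64 against 4.33), Ccl12 (−0.44 against 2.19), Nckap5 (−0.33 against 2.48) and Vwa5b1 (−0.80 against 2.08). For Ccl12 the PBS levels were −2.47 here and −3.62 in wild-type brain and the LPS levels −2.91 and −1.43, so both ends differed.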

How the data were processed

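Total RNA of whole brain was extracted with TRIzol, labelled with Cy3 and hybridised to 4 single-colour Agilent arrays, as the labels' protocols and the file headers state. Signals were read with Agilent Feature Extraction, version 11.0.1.1 per the submitters' processing notes but 12.0.3.1 per the file headers. The deposited intensity used here is the processed signal, background-subtracted and detrended within the array with no scaling between arrays, per the file headers. Log2 of that deposited intensity minus each array's 75th percentile (514 for Nav1.8CreROSA26DTA PBS and 726 for LPS) gave the levels. Spots with an outlier flag were left out, and no spot was saturated. The value table that the authors deposited equals the processed signal times 1 factor per array, whose basis no label or header gives.

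Probes were named through RefSeq accessions with the gene table of GRCm38.p6. Of 56605 probes, 33758 had 1 symbol and no outlier flag on any array. Each of 23457 genes took the probe that cleared background on most arrays, with ties settled by mean level. A bound sets the bright level against the higher of the dim array's lowest level above background and the gene's own level there.

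Named genes were the 20 highest and 20 lowest differences, the 15 largest bounds higher and 5 lower with LPS, up to 6 members per list by absolute difference with list bounds of at least 2-fold, the 8 widest gaps between genotypes each way, and the cell markers. H2-K1, H2-Ab1, Cd74, Ciita, Ltc4s, Trem2, Fpr2 and Tlr4 fall outside this rule and were chosen after their values were seen. Promoters were shown for up to 8 genes. The members and lists were chosen with earlier results of these data known. The computation used Python 3.11.15, pandas 2.3.3, numpy 2.4.6 and, for alternatives, limma 3.58.1 in R 4.3.3, and was tested on simulated data.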

Additional observations from a re-analysis of the deposited data

Results flagged for a closer look

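In the 2 genotypes, 5 genes were at least 2-fold apart in opposite directions, each on single arrays, and the difference was not tested. Hbb-b1 was at −1.02 in Nav1.8CreROSA26DTA brain and 1.21 in wild-type brain, Hbb-bt at −1.15 and 1.09, and Alas2 at −1.11 and 1.43, all genes of red cells. Myh6, the cardiac alpha myosin heavy chain gene, was at −1.04 and 1.09. Cd5l, a secreted protein of macrophages, ran the other way, at 1.06 and −1.41.

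List medians of opposite sign that lay at least 0.5 apart (log2) were those of erythroid and platelet genes (−0.92 and 0.19 over 14 genes measured on all arrays), fibroblast and meningeal matrix genes (−0.31 and 0.22 over 22) and monoamine neuron genes (0.21 and −0.34 over 8). These differences between genotypes were not tested either.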

How the results depend on the processing

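Each group has 1 array, so the precision is limited by the number of arrays and no call has a test behind it. No paired analysis was possible because each group holds a single sample. Against 513 genes at least 2-fold higher and 235 lower, scaling to the median, quantile normalization, cyclic loess, the deposited value table and the median over a gene's probes gave 465 to 608 and 175 to 291. At 4-fold the counts were 170 and 24, and with dim probes kept 1310 and 806. The scanner files hold no mean signal, so normexp was run on the median signal and background, with 267 and 83. With the wild-type PBS array as the baseline, 692 and 151 genes passed, and with the mean of both PBS arrays 550 and 132. These 3 alternatives were chosen after seeing the data. Normexp turned Clic6 to −0.13 and Atf3 to −0.00835. The wild-type baseline turned Cd5l to −0.59, H2-Aa to 0.0652, Hbb-bt to 1.86, Alas2 to 2.02, Hbb-b1 to 2.16 and the pituitary median to 0.18. The mean baseline turned Hbb-bt to 0.35, Alas2 to 0.46, Hbb-b1 to 0.57 and the pituitary median to 0.0123, over 2 genes rather than 4. The cause was not tested. No other list median or named gene with a main difference of at least 2-fold changed sign under an alternative that gave it a value. Smaller differences, such as the erythroid median of −0.91, were outside this check. For Hba-a1, the LPS level of 7.23 lay above the wild-type PBS level of 5.28. With the wild-type PBS baseline, 26 of 53 list medians and 245 named genes moved by at least 0.14 (log2) without being counted as a change of sign. The same held for 21 list medians and 197 of 340 named genes with normexp. With the mean of both PBS arrays as the baseline, it held for 14 list medians and 181 named genes.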
